A study of Homo sapiens with 11 samples.

Results

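SVA elements are composite retroposons of apes and humans, named after their SINE-R, VNTR and Alu-like segments. The rows examined here are the 5827 of 5622516 repeat rows whose name places them in the SVA class, counted in RNA pulled down with J2, which recognises double-stranded RNA. The members were chosen by name alone, and they fall into 6 subfamilies: 1230 rows of SVA_A, 839 of SVA_B, 540 of SVA_C, 1491 of SVA_D, 704 of SVA_E and 1023 of SVA_F. The cells were HCT116, a long-established line from a human colorectal carcinoma. The 3 J2 libraries, 1 per group, were siLuc DMSO (siRNA against luciferase, the solvent DMSO), siLuc DAC (the same siRNA, decitabine) and siStau1 DAC (siRNA against Staufen1, decitabine), with decitabine at 500 nM for 5 days per the labels. The other 8 libraries are total RNA, in 4 groups of 2 that also include siStau1 with DMSO. A J2 library of siStau1 with DMSO was not analysed here, so the siRNA against Staufen1 can be set against its control only under decitabine. J2 is named in the labels of these libraries, but the protocol text names an antibody to Staufen1, so which was used is uncertain. No library of RNA without the antibody was counted on repeats here, so the abundance of an element in the cell and its binding by the antibody cannot be told apart.

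A full SVA carries, from its 5′ end, a CCCTCT hexamer tract, an Alu-like segment, a GC-rich variable number tandem repeat, a SINE-R segment derived from the HERV-K family whose LTR is LTR5_Hs, and a poly(A) tail. SVAs encode no protein and are copied into new sites by the machinery of LINE-1 elements such as L1HS. SVA_A is the oldest subfamily, and SVA_E and SVA_F are the youngest and are human-specific. The elements are dense in CpG and normally methylated, and KRAB zinc finger proteins such as ZNF91 and ZNF611 recruit the silencing factor TRIM28 to them. Decitabine, incorporated into DNA, traps DNA methyltransferases and lowers methylation, and Staufen1 binds double-stranded RNA. The rows carry no genome positions, so no element could be placed beside a gene or shown with its sequence.

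The 3 libraries held between 68944777 and 83037330 reads on repeats, and the siLuc DAC library stood apart from the others. Across the 1948 SVA rows with at least 20 reads over the 3 libraries, Spearman's rho was 0.907 between siLuc DMSO and siStau1 DAC, but 0.699 between siLuc DMSO and siLuc DAC and 0.703 between the DAC libraries. Over all 760969 repeat rows of that depth the same values were 0.820, 0.649 and 0.718, so the gap was not limited to SVA rows. Rows of 1 library share its depth and preparation, and these values are descriptions. Each comparison that uses siLuc DAC is therefore given beside siStau1 DAC over siLuc DMSO, the pair without that library, which differs in both siRNA and drug. The targeted gene could be checked in total RNA alone, where the authors' deposited table lists STAU1 at 35.5 FPKM for siLuc DMSO against 30.0 for siStau1 DMSO (q-value 0.767), and at 33.7 for siLuc DAC against 27.1 for siStau1 DAC (q-value 0.685). Neither difference was called, so the knockdown rests on the labels. Of 8 colon epithelial markers, the authors' deposited table lists EPCAM, CDH1, KRT8, KRT18, KRT20 and CDX2 above 1 FPKM in each group, and VIL1 and CDH17 at most at 0.198 and 0.0682 FPKM. With DAC in siLuc, EPCAM was listed at 259 and 117 FPKM (q-value 0.0157) and KRT20 at 1.16 and 6.24 (q-value 0.00415) in the authors' deposited table, while CDH1, KRT8, KRT18 and CDX2 were not called. With DAC in siStau1, KRT18 (q-value 0.0348) and KRT20 (q-value 0.00162) were called in the authors' deposited table. KRT20 was also called there between the DAC groups, at 6.24 FPKM in siLuc and 20.2 in siStau1 (q-value 0.00162). Of 4 markers of other cells in the authors' deposited table, PECAM1 was listed at 0 and 0.633 FPKM with DAC in siLuc (q-value 0.00162) and PTPRC at 0 and 0.820 with DAC in siStau1 (q-value 0.00162). COL1A1 lay between 0.826 and 8.60 FPKM and was called with DAC in siStau1, at 0.826 and 5.65 (q-value 0.0201), and DCN was at most 0.272. The part of these genes in the results was not tested.

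Values for the J2 libraries are given in the order siLuc DMSO, siLuc DAC and siStau1 DAC unless a library is named. SVA rows held 154698, 114798 and 175290 reads. As RPM, reads scaled to 1000000 reads on repeats, this was 2164 (Wilson 95% interval 2154 to 2175), 1665 (1655 to 1675) and 2111 (2101 to 2121). The siLuc DAC library was lowest, and the other libraries lay close together. With 1 library per group there is no spread between replicates and no test between conditions, and the intervals cover counting error only. Reads may also have been counted in pairs, which would make the intervals too narrow: between 66.3% and 68.2% of SVA rows with reads had an even number.

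SVA_D was the most abundant subfamily in all 3 libraries. It had 977 (970.0 to 985), 725 (719 to 732) and 959 (952 to 966) RPM. SVA_C, the second in order, had 356, 285 and 337 RPM. SVA_F had 321, 204 and 331 RPM, so it stood above SVA_B in the first and last library and below it in siLuc DAC. In siStau1 DAC the intervals of SVA_C (333 to 341) and SVA_F (327 to 335) overlapped. SVA_B had 298, 272 and 279 RPM. SVA_A had 141, 119 and 134 RPM, and SVA_E, the lowest, had 70.6, 60.3 and 71.7. All 6 subfamilies were lowest in siLuc DAC when scaled to reads on repeats, and the direction against siLuc DMSO turned under the authors' own scaling, described with the ratios. Row lengths are not in the tables, so these levels reflect the number and size of the rows as well as the RNA from each.

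**Figure D1:**
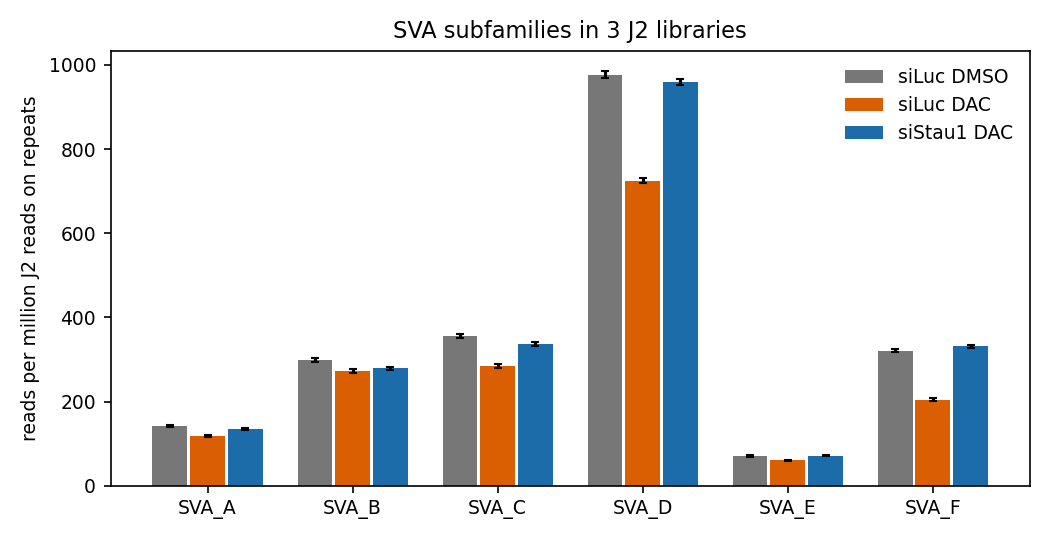
RPM (vertical axis, reads per 1000000 reads on repeats) for SVA_A to SVA_F in the 3 J2 libraries; bars are 1 library each and error bars are Wilson 95% intervals for counting error. SVA_D is highest in each library, and SVA_F stands at 321 in siLuc DMSO and 204 in siLuc DAC; under the authors' factors the summed SVA reads are higher in both DAC libraries.

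The make-up of the SVA reads does not depend on how libraries are scaled. SVA_F made up 14.8% of SVA reads (14.6% to 15.0%), then 12.3% (12.1% to 12.5%) and 15.7% (15.5% to 15.9%). SVA_D made up 45.1%, 43.6% and 45.4%. The older SVA_B went the other way, with 13.8%, 16.4% and 13.2%, and SVA_A had 6.52%, 7.12% and 6.34%. SVA_C made up 16.5%, 17.1% and 15.9% and SVA_E 3.26%, 3.62% and 3.40%. In siLuc DAC the SVA reads thus held a smaller part from SVA_F and SVA_D and a larger part from SVA_A, SVA_B, SVA_C and SVA_E than in either of the other libraries.

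A larger share of SVA rows than of all repeat rows had reads in every library. Reads were present in all 3 libraries for 2158 rows (37.0%) and in none for 2822 (48.4%), while over all repeat rows these shares were 16.2% and 65.6%. The repeats most like SVA were found more often still. In siLuc DMSO, 45.4% of SVA rows had reads. This was 50.4% in L1HS, 50.7% in its close relative L1PA2, 56.2% in LTR5_Hs and 59.7% in AluY. SVA was the lowest of these sets in each library. By subfamily, rows with reads in siLuc DMSO made up 72.2% of SVA_D, 54.6% of SVA_C, 50.4% of SVA_F, 40.8% of SVA_B, 25.4% of SVA_E and 19.1% of SVA_A. Of rows with reads in exactly 2 libraries, siLuc DAC was the one without for 300, siLuc DMSO for 94 and siStau1 DAC for 76. The 300 rows were 63.8% of these, against 40.8% over all repeat rows. SVA_D accounted for 110 of those 300 rows and SVA_F for 53. As a share within each subfamily this was 67.5% in SVA_D and 65.4% in SVA_F. It was 69.0% in SVA_C, 62.7% in SVA_B, 56.1% in SVA_E and 53.3% in SVA_A.

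Each row name holds a number whose meaning the tables do not state. Its highest value was 803 in tRNA rows, 3139 in AluY, 9463 in LTR5_Hs, 11711 in SVA and 29598 in L1HS, which is the order of the lengths of these elements, and a last number, where present, counts rows of the same name. Taken as a label, the number separated SVA rows with and without reads. The 2494 rows with a number under 1000, 42.8% of SVA rows, held 0.676% of SVA reads in siLuc DMSO, and 5.57% of them had a read (4.74% to 6.54%). The 2845 rows with a number of at least 5000 held 95.3% of the reads, and 79.2% of them had a read in siLuc DMSO (77.6% to 80.6%), with 71.8% (70.1% to 73.4%) and 80.4% (78.9% to 81.8%) in the others.

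Much of the spread in detection between subfamilies followed this number. Of SVA_A rows 75.6% had a number under 1000, and of SVA_E rows 71.0%, against 10.9% of SVA_D rows. Among rows with a number of at least 5000, the share with a read in siLuc DMSO was 70.5% in SVA_A, 71.1% in SVA_B, 75.9% in SVA_C, 82.3% in SVA_D, 83.4% in SVA_E and 83.9% in SVA_F. These shares run in the order from SVA_A to SVA_F. The intervals of neighbours overlap except those of SVA_C (71.3% to 80.0%) and SVA_D (80.1% to 84.4%), which lie side by side. In siLuc DAC each of the 6 shares was lower, from 60.9% in SVA_A to 76.6% in SVA_F, and SVA_E (74.8%) stood below SVA_D (75.7%). Reads per row in these rows of siLuc DMSO were 42.1 in SVA_A, 48.3 in SVA_B, 68.7 in SVA_C, 55.3 in SVA_D, 28.7 in SVA_E and 44.7 in SVA_F, which is another order.

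**Figure D2:**
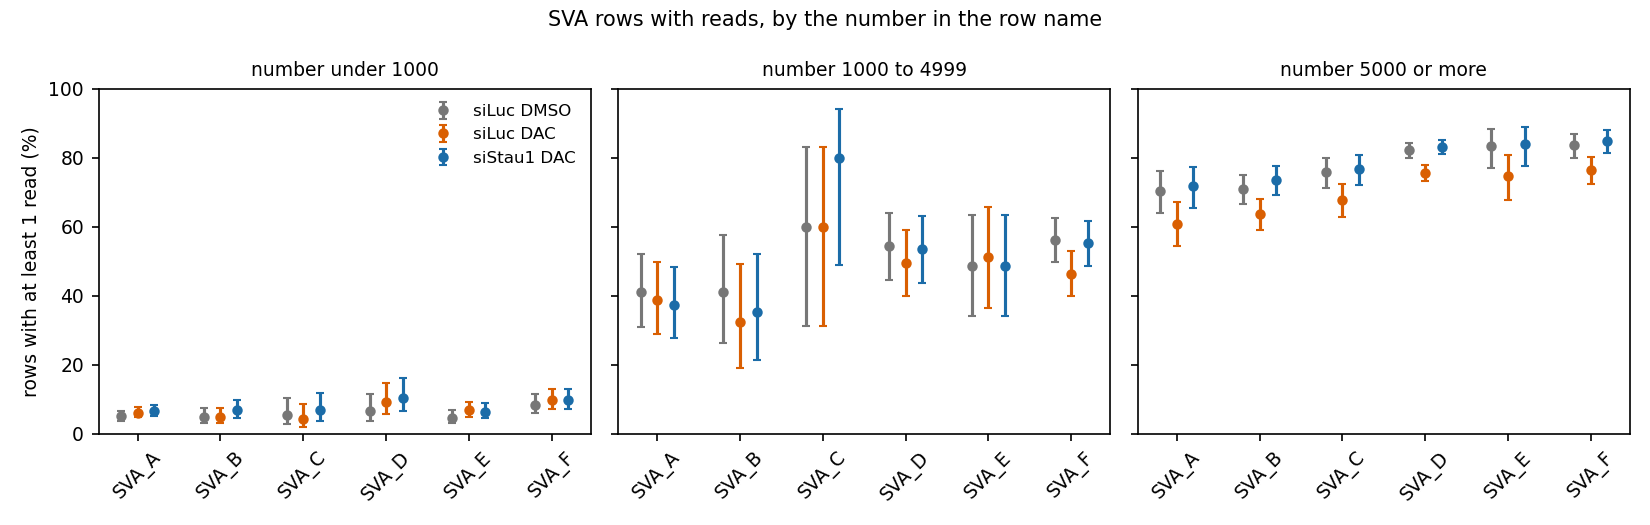
Share of SVA rows with at least 1 read (vertical axis, percent) by subfamily and library, in 3 ranges of the number in the row name; points are 1 library each and error bars are Wilson 95% intervals. Few rows with a number under 1000 had reads, and among rows with a number of at least 5000 siLuc DAC was lowest in all 6 subfamilies.

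Single rows held a sizeable part of some subfamilies. The SVA_C row numbered 6615 had 5050, 3405 and 5506 reads, which was 19.8%, 17.4% and 19.7% of all SVA_C reads. It was the SVA row with most reads in each library. The SVA_D row with most reads over the 3 libraries, numbered 7558, had 1058, 1423 and 1379 reads, or 1.51%, 2.85% and 1.73% of SVA_D reads. Reads of SVA_D were spread over more rows: the 10 highest rows of each library held 10.4%, 14.8% and 11.4% of SVA_D reads, against 36.5%, 37.6% and 36.6% in SVA_C.

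The rows with most reads over the 3 libraries in the other subfamilies were also found in each library. The SVA_B row numbered 6491, the second of that name, had 1310, 1403 and 1702 reads. The SVA_A row 8922 had 885, 734 and 1054 reads, and the SVA_F row 5097 had 824, 883 and 903. The SVA_E row 6142 had 400, 472 and 313 reads, and it was lowest in siStau1 DAC. Of these 6 top rows, 4 had a higher share of reads in siLuc DAC than in siLuc DMSO, in SVA_B, SVA_D, SVA_E and SVA_F, whereas their subfamilies as sums were lower there. With the row with most reads in each subfamily left out, the SVA share of reads on repeats was 0.203%, 0.154% and 0.198%, against 0.216%, 0.167% and 0.211% with them.

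The comparison of siLuc DAC with siLuc DMSO addresses what decitabine does to double-stranded SVA RNA in control cells. The summed SVA reads had a log2 ratio of -0.38 (-0.39 to -0.37) when scaled to reads on repeats, and 0.51 with the factors the authors had applied to the libraries, so the direction depends on the scaling. Their factors, 1.92 for siLuc DAC and 1.27 for siStau1 DAC, move the median of all repeat rows from 0.01 to 0.90 in this comparison, and the rows are therefore described relative to all repeat rows. For siStau1 DAC the same median moves from 0.04 to 0.60 over siLuc DMSO and from 0.03 to -0.30 over siLuc DAC. Row ratios were taken for rows with at least 20 reads in the pair of libraries together, with 0.5 reads added. Of 5827 SVA rows, 1611 (27.6%) passed: 110 of SVA_A, 189 of SVA_B, 177 of SVA_C, 732 of SVA_D, 85 of SVA_E and 318 of SVA_F.

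The median log2 ratio over these SVA rows was -0.54 (order-statistic 95% interval -0.60 to -0.48), against 0.01 over 604858 repeat rows, a difference of -0.55, which the authors' factors cannot change since they add 1 constant to every row of a pair. Intervals of this kind cover the spread over rows, which are not replicates, and not the spread between libraries. Past 2-fold lower in siLuc DAC were 594 SVA rows (36.9%), while 17.0% of all repeat rows were. Past 2-fold higher were 79 SVA rows (4.90%), against 21.3% of all repeat rows. Under the authors' factors 22.9% of SVA rows were past 2-fold lower, against 6.73% of all repeat rows, and 24.1% past 2-fold higher, against 46.2%. SVA rows thus lay toward the low side of the repeats of siLuc DAC.

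The subfamilies differed in this ratio. SVA_F had the lowest median log2 ratio, -0.87 (-1.15 to -0.72), with 151 of 318 rows (47.5%) past 2-fold lower. SVA_D followed with -0.62 (-0.71 to -0.54) and 294 of 732 rows (40.2%). The medians were -0.40 in SVA_E (-0.71 to -0.15), -0.40 in SVA_C (-0.52 to -0.25), -0.28 in SVA_B (-0.41 to -0.10) and -0.25 in SVA_A (-0.56 to 0.01), and the intervals of these 4 overlap. The interval of SVA_F lay below those of the other 5 subfamilies, narrowly so for SVA_D and SVA_E. With 1 library per group this order describes the rows and is no test between subfamilies. Under the authors' factors the medians were 0.02 in SVA_F, 0.27 in SVA_D, 0.49 in SVA_E, 0.49 in SVA_C, 0.61 in SVA_B and 0.64 in SVA_A, each sign being turned by the same constant. Summed reads also had SVA_F and SVA_D lowest but ordered the others differently, with a log2 ratio of -0.65 in SVA_F, -0.43 in SVA_D, -0.32 in SVA_C, -0.25 in SVA_A, -0.23 in SVA_E and -0.13 in SVA_B.

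**Figure D3:**
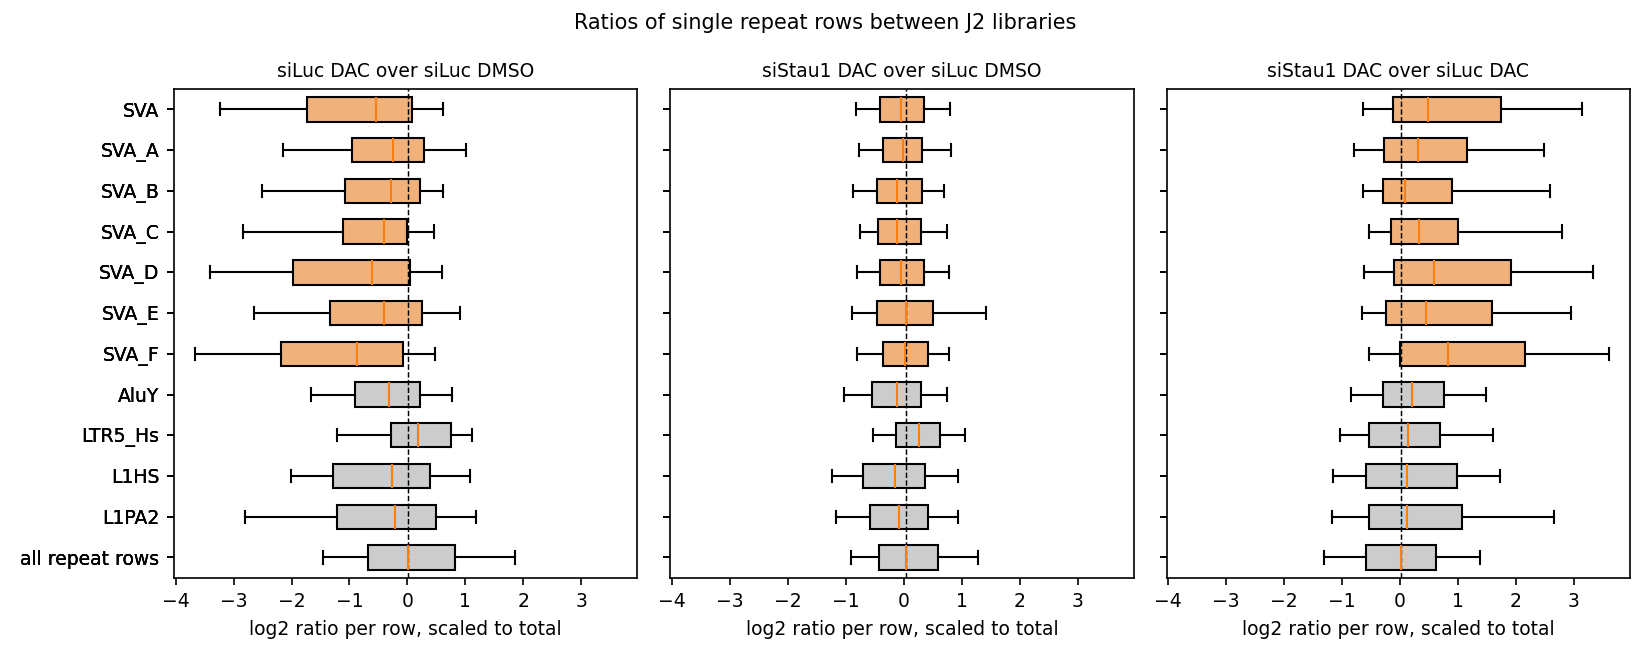
Log2 ratio per repeat row (horizontal axis) between each pair of J2 libraries, scaled to reads on repeats, for SVA rows (orange) and other sets (grey); boxes are quartiles with the median, whiskers the 10th and 90th percentiles, and the dashed line the median of all repeat rows. In both pairs that use siLuc DAC the SVA_D and SVA_F boxes reach far to the side of fewer reads in siLuc DAC, while in the pair without it the medians of the 6 subfamilies lie between -0.12 and 0.05; the authors' factors shift all boxes of a panel together and turn some signs.

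The lower ratio was most marked in rows of low read number. SVA rows with 20 to 49 reads in the pair had a median log2 ratio of -1.21 (554 rows), those with 50 to 99 reads -0.85 (367 rows), those with 100 to 499 reads -0.25 (590 rows) and those with at least 500 reads -0.09 (100 rows). All repeat rows went the other way over the same ranges, at 0.18, 0.02, -0.11 and -0.18. SVA rows with at least 500 reads had a median above that of the repeats of their depth. Rows chosen by their reads in siStau1 DAC, which is not in this ratio, showed the same trend, with -0.90 at 20 to 49 reads (571 rows), -0.64 at 50 to 99 (391 rows), -0.27 at 100 to 499 (462 rows) and -0.21 at 500 or more (33 rows), against 0.01, -0.09, -0.19 and -0.21 for all repeat rows. With at least 100 reads in the pair the subfamily medians were -0.34 in SVA_F (115 rows), -0.23 in SVA_D (323 rows), -0.23 in SVA_C (91 rows), -0.11 in SVA_B (100 rows), -0.07 in SVA_A (39 rows) and 0.02 in SVA_E (22 rows), against -0.12 for all repeat rows. At 100 to 499 reads in the pair, 20.8% of SVA rows were past 2-fold lower and 3.22% higher, against 12.9% and 11.5% of all repeat rows. SVA_F rows with 100 to 499 reads in siStau1 DAC (75 rows) had a median of -0.62, and 41.3% were past 2-fold lower. Over all repeat rows chosen in that way these values were -0.19 and 13.6%.

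**Figure D4:**
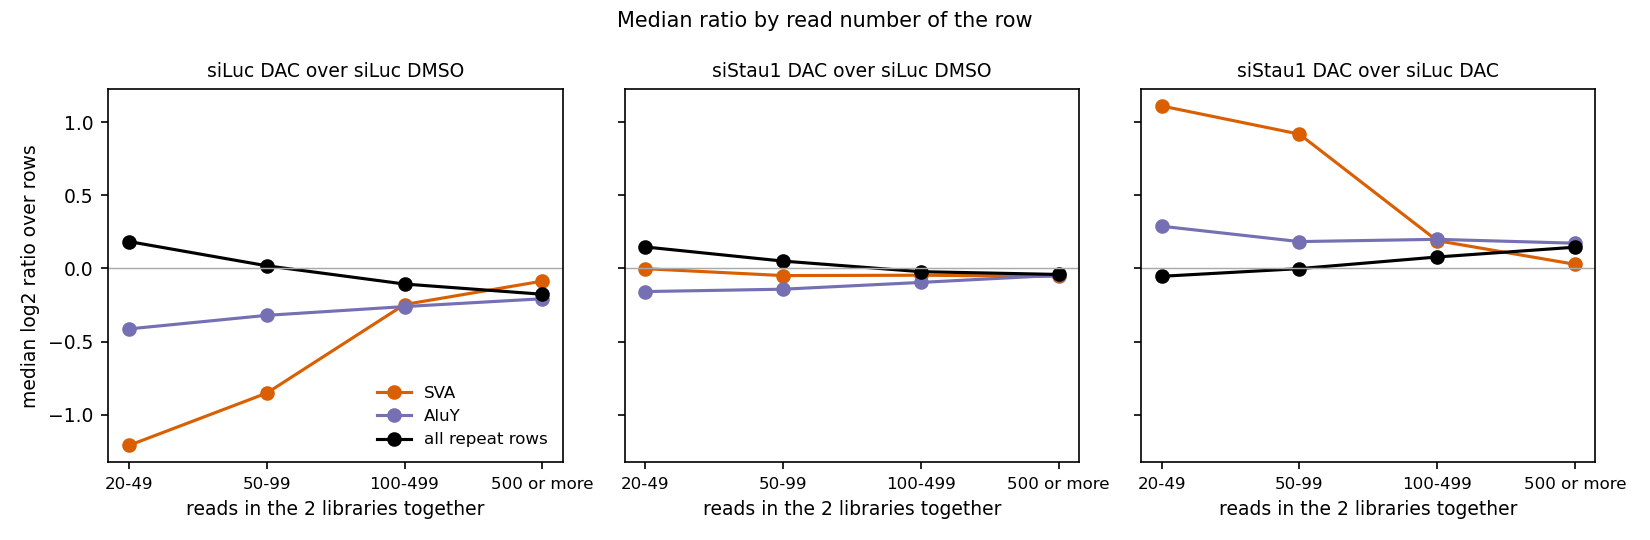
Median log2 ratio over rows (vertical axis) by the reads of the row in the pair of libraries (horizontal axis) for SVA, AluY and all repeat rows, scaled to reads on repeats, 1 panel per pair. SVA rows with 20 to 49 reads sit at -1.21 for siLuc DAC over siLuc DMSO and at 1.11 for siStau1 DAC over siLuc DAC, and near 0 in the pair without siLuc DAC; the authors' factors shift all lines of a panel together and turn some signs.

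Some SVA rows had no read at all in siLuc DAC. Of 1268 SVA rows that had 20 reads or more in both other libraries, 31 had 0 reads in siLuc DAC (2.44%, 1.73% to 3.45%), against 2.15% of all repeat rows. The corresponding number was 0 of 892 rows in siLuc DMSO, which by 3 counts of the total allows a share of up to 0.336%, and 0 of 877 in siStau1 DAC, which allows up to 0.342%. Over all repeat rows these shares were 0.202% and 0.00420%, within what the SVA counts allow, so siLuc DAC stood apart among all repeats too. SVA_D held 15 of the 31 rows, SVA_F 7, SVA_C 4, SVA_B 3, and SVA_A and SVA_E 1 each. The interval of the SVA share in siLuc DAC holds the share of all repeat rows there. Setting rows without reads at a floor of 3 reads per library left the SVA median at -0.54.

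Among the 690 SVA rows with at least 100 reads in siLuc DMSO and siLuc DAC together, the lowest were rows without reads in siLuc DAC. The SVA_D row 4688 had 202, 0 and 207 reads, and was at least 65.0-fold lower in siLuc DAC than in siLuc DMSO against the floor of 3 reads per library, or at least 35.1-fold under the authors' factors. The SVA_D row 6795 had 166, 0 and 133 reads, at least 53.4-fold lower, or at least 28.8-fold under the authors' factors. At the other end, the SVA_D row 4968 had 24, 181 and 49 reads, a log2 ratio of 2.94. The SVA_F row 648 had 27, 130 and 88 reads, a log2 ratio of 2.30. SVA_D made up 323 of the 690 rows, and its rows were found at both ends.

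Without the siLuc DAC library, SVA rows lay close to all other repeats. For siStau1 DAC over siLuc DMSO the summed SVA reads had a log2 ratio of -0.04 (-0.05 to -0.03), and 0.53 under the authors' factors. The median over 1811 SVA rows was -0.04 (-0.07 to -0.01), against 0.04 over 622296 repeat rows, a difference of -0.08. Past 2-fold higher were 113 SVA rows (6.24%), against 14.5% of all repeat rows, and past 2-fold lower 128 (7.07%), against 8.27%. Both shares were under those of all repeat rows, the first by more. At 100 to 499 reads the share past 2-fold higher was 1.12% in SVA rows and 6.33% in all repeat rows.

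By row medians the subfamilies lay close together in this pair. The medians were -0.01 in SVA_A (114 rows), -0.11 in SVA_B (209 rows), -0.12 in SVA_C (206 rows), -0.05 in SVA_D (815 rows), 0.05 in SVA_E (107 rows) and 0.02 in SVA_F (360 rows), and their intervals reach from -0.22 to 0.22 in all. The summed log2 ratio was 0.05 in SVA_F (0.02 to 0.07) against -0.10 in SVA_B (-0.13 to -0.07) and -0.08 in SVA_C (-0.11 to -0.06), intervals of counting error that do not overlap. SVA_E had the widest spread on the high side, with 18 of 107 rows (16.8%) past 2-fold higher, close to the 14.5% of all repeat rows. The lowest rows with at least 100 reads were the SVA_D row 8194, with 115, 46 and 52 reads, and the SVA_F row 5003, with 125, 97 and 57. Their log2 ratios were -1.35 and -1.34. The highest were the SVA_F row 1068, with 62, 133 and 214 reads and a log2 ratio of 1.56, and the SVA_F row 648, with 1.47. The row 8194 was low, and the rows 1068 and 648 were high, in both DAC libraries.

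What siRNA against Staufen1 does to this RNA under decitabine is the question of siStau1 DAC against siLuc DAC. It shares the siLuc DAC library with the comparison of siLuc DAC and siLuc DMSO, so the 2 are not independent, and what is low in that library is high here. The summed SVA reads had a log2 ratio of 0.34 (0.33 to 0.35), and 0.02 under the authors' factors. The median over 1675 SVA rows was 0.48 (0.42 to 0.56) against 0.03 over 644672 repeat rows. Past 2-fold higher in siStau1 DAC were 613 SVA rows (36.6%), against 15.5% of all repeat rows, and past 2-fold lower 75 (4.48%), against 14.8%.

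SVA_F again lay farthest out in this pair, with a median of 0.83 (0.63 to 1.17), and 156 of 330 rows (47.3%) were past 2-fold higher. The medians were 0.59 in SVA_D (0.47 to 0.73), 0.45 in SVA_E (0.14 to 0.85) and 0.33 in SVA_C (0.20 to 0.42). They were 0.31 in SVA_A (0.06 to 0.49) and 0.08 in SVA_B (0.0045 to 0.23). Under the authors' factors those of SVA_A and SVA_B turned to -0.01 and -0.24, while SVA_F stayed at 0.51 and SVA_D at 0.27. With at least 50 reads, scaled to reads on repeats, SVA_F had 0.70, SVA_D 0.35, SVA_A 0.25 and SVA_C 0.21. SVA_E then had 0.068 (52 rows) and SVA_B 0.010, against 0.065 over all repeat rows. SVA rows with 20 to 49 reads had a median of 1.11 (567 rows), against -0.05 over all repeat rows of that depth. At 100 reads or more it was 0.14 (730 rows) against 0.09. With at least 500 reads the SVA median was 0.03 (114 rows), below the 0.14 of all repeat rows. The highest single rows with at least 100 reads were the SVA_D row 9046, with 136, 0 and 209 reads, and the SVA_D row 4688 given above. They were at least 57.8-fold and 57.3-fold higher in siStau1 DAC, or at least 46.3-fold and 45.8-fold under the authors' factors. The lowest were the SVA_D row 4968 given above, at -2.14, and the SVA_D row 5647, with 36, 75 and 26 reads, at -1.78.

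Repeats that share sequence or machinery with SVA were set beside it. For siLuc DAC over siLuc DMSO the median log2 ratio was -0.31 in AluY (27100 rows), the youngest large Alu subfamily, -0.26 in L1HS (299 rows) and -0.22 in its close relative L1PA2 (992 rows). It was 0.18 (0.05 to 0.38) in LTR5_Hs (181 rows), the LTR of the HERV-K group to which the SINE-R segment is related. Past 2-fold lower were 22.4% of AluY, 31.1% of L1HS, 28.6% of L1PA2 and 12.2% of LTR5_Hs rows, against 36.9% of SVA rows. Of these 4 sets LTR5_Hs alone had a median above that of all repeat rows. Its log2 ratio of summed reads was 0.31 in siLuc DAC and 0.31 in siStau1 DAC, each over siLuc DMSO, while the SVA sums gave -0.38 and -0.04.

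At matched read numbers the medians of SVA and AluY differed mainly in rows with few reads. At 20 to 99 reads the median for siLuc DAC over siLuc DMSO was -1.03 in SVA (921 rows), -0.37 in AluY, -0.31 in L1HS and -0.44 in L1PA2. LTR5_Hs lay at -0.11 in this range, below the 0.12 of all repeat rows. At 100 reads or more the median was -0.23 in SVA (690 rows), -0.25 in AluY, 0.05 in L1HS and 0.07 in L1PA2. LTR5_Hs then lay at 0.45 and all repeat rows at -0.12, so L1HS and L1PA2 also lay above all repeat rows. At this depth 18.6% of SVA rows were past 2-fold lower. This was 12.2% in AluY, 19.0% in L1HS, 13.9% in L1PA2, 4.76% in LTR5_Hs and 11.9% over all repeat rows. At 500 reads or more the median was -0.09 in SVA and -0.21 in AluY. The part of row length and of likeness to other copies in these values was not tested. How reads that match several copies were assigned is not given in the sources used here, so counts of single rows of the near-identical SVA_E and SVA_F copies are uncertain.

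The genes known to silence SVA and other retroelements were examined in total RNA, where the authors' deposited table, in the layout of Cuffdiff, gives 1 FPKM value per group. The list holds 13 genes, all tested there. With DAC in siLuc, 2 of the 13 were lower at a q-value under 0.05 in the authors' deposited table and 0 were higher. Of all genes tested, 13.5% were called in either direction, and the number called in the list was near that share. MPHOSPH8, a chromodomain subunit of the HUSH complex that silences retroelements, was listed in the authors' deposited table at 26.6 FPKM without and 7.20 with DAC in siLuc (q-value 0.00732). FAM208A (TASOR), the scaffold of the same complex, was listed at 15.2 and 6.10 FPKM in the authors' deposited table (q-value 0.0343). Log2 ratios in this table follow the GC content of the transcript: genes of like GC content had medians of -0.44 and -0.95, and relative to these MPHOSPH8 was at -1.44 and FAM208A at -0.36, against -1.87 and -1.30 before.

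The other 11 genes were not called for DAC in siLuc, and 0 of the 13 were called in the other 3 comparisons, where the authors' deposited table calls 7.46% of genes tested (DAC in siStau1), 0.799% (siStau1 in DMSO) and 0.904% (siStau1 in DAC). At an unadjusted Cuffdiff p under 0.05 there were 3, 0 and 1 genes of the list in these, against 19.0%, 4.30% and 6.95% of all genes tested, and 3 for DAC in siLuc, against 28.9%. ZNF91 (ENSG00000167232.13, chromosome 19, 23304991 to 23395560, GRCh38), a zinc finger protein that binds the VNTR of SVA, had 3.73, 1.40, 6.34 and 3.29 FPKM in the authors' deposited table, in the order siLuc DMSO, siLuc DAC, siStau1 DMSO, siStau1 DAC. Its q-values there were 0.285 for DAC in siLuc and 0.215 for siStau1 in DAC. The log2 ratios of ZNF91 in these were -1.36 and 1.18, or -0.61 and 0.57 relative to genes of like GC content. ZNF611, another zinc finger protein reported at SVA, had 6.28, 7.78, 3.52 and 7.17 FPKM in the same order in the authors' deposited table. Over the list the median log2 ratio was -0.17 with DAC in siLuc and -0.04 in siStau1, against 0.23 and 0.11 over all genes tested, and -0.09 and -0.07 with siStau1 in DMSO and in DAC, against -0.02 and -0.14. These list medians were not taken relative to genes of like GC content, so the part of GC content in them was not tested.

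The corepressor and methylation genes of the list were not called. TRIM28, which the zinc finger proteins recruit, had 349, 680, 328 and 486 FPKM in that order in the authors' deposited table. With DAC in siLuc this was a log2 ratio of 0.96, and -0.11 relative to genes of like GC content. SETDB1, the histone methyltransferase that acts with TRIM28, had 33.1, 29.5, 23.6 and 28.1 FPKM, and its partner ATF7IP had 21.2, 15.7, 34.2 and 19.9 FPKM in the authors' deposited table. DNMT1, the maintenance methyltransferase that decitabine traps, had 115, 86.2, 204 and 79.4 FPKM in the authors' deposited table, and its log2 ratio with DAC in siLuc was -0.41, or -0.96 relative to genes of like GC content. UHRF1, which guides it to replicated DNA, had between 19.5 and 24.9 FPKM in the authors' deposited table. DNMT3A had between 1.79 and 2.99 FPKM and DNMT3B, the other de novo methyltransferase, between 8.65 and 11.2 in the authors' deposited table. PPHLN1, a HUSH subunit, had between 31.7 and 58.5 FPKM, and MORC2, an ATPase that works with HUSH, between 4.41 and 13.5 in the authors' deposited table.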

How the data were processed

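RNA bound by J2 was counted on repeats in 3 libraries, 1 per group. The authors deposited whole-number read counts plus 1 for siLuc DMSO and, for the DAC libraries, a signal equal to the count plus 1 times 1 factor per library. Dividing by the column minimum and subtracting 1 gave whole reads for 100% of values (within 0.001). The deposited ratio is a score, the logarithm to base 1.5, and was not used. Total RNA came as FPKM per group with the authors' test statistic score, log2 fold change, p-value and q-value in Cuffdiff's layout, per the file headers, whose value columns hold FPKM in that layout. HISAT2 2.1.0, featureCounts, DESeq 1.36.0, Cuffdiff 2.2.1, Cuffnorm 2.2.1 and hg38 are named in the submitters' processing notes, with no role. How the factors were set is not given in the sources used here.

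Ratios were log2 of reads scaled to the total on repeats plus 0.5 reads, over rows with at least 20 reads in the pair, computed with Python 3.11.15 and tested on simulated data. FPKM ratios had 0.1 added. Transcript GC content and gene positions came from GENCODE 29 (GRCh38), and centring used 20 bins of GC content. Single rows were named by a rule: most reads per subfamily, and the 2 highest and 2 lowest ratios per pair among rows with at least 100 reads. The members and lists were chosen with earlier results of these data known. Alternatives were other scalings, read limits and added reads.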

Additional observations from a re-analysis of the deposited data

How the results depend on the processing

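The authors' factors turned the sign of the summed and median SVA ratios over siLuc DMSO. For siStau1 DAC over siLuc DAC both stayed positive. Under the authors' factors the summed SVA log2 ratio was 0.51 for siLuc DAC and 0.53 for siStau1 DAC, each over siLuc DMSO, and 0.0200 for siStau1 DAC over siLuc DAC. The SVA medians were then 0.35, 0.52 and 0.16. By subfamily the median for siLuc DAC over siLuc DMSO turned to 0.64 in SVA_A, 0.61 in SVA_B, 0.49 in SVA_C, 0.27 in SVA_D, 0.49 in SVA_E and 0.0163 in SVA_F. For siStau1 DAC over siLuc DMSO it turned to 0.56 in SVA_A, 0.46 in SVA_B, 0.45 in SVA_C and 0.52 in SVA_D, and for siStau1 DAC over siLuc DAC to -0.0116 in SVA_A and -0.24 in SVA_B. The shares past 2-fold higher and lower were 24.1% and 22.9%, 22.5% and 2.1%, and 31.0% and 8.84% (all repeat rows 46.2% and 6.73%, 30.5% and 2.78%, and 10.5% and 22.2%), in the order siLuc DAC over siLuc DMSO, siStau1 DAC over siLuc DMSO and siStau1 DAC over siLuc DAC. The signs that turned follow from the factors themselves.

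Scaled to reads outside Alu, the summed ratios in that order were -0.70, -0.15 and 0.55 and the medians -0.86, -0.16 and 0.69. The SVA share of J2 reads was 0.509%, 0.313% and 0.459% (siLuc DMSO, siLuc DAC, siStau1 DAC) of reads outside Alu, 1.01%, 0.561% and 0.771% of reads outside Alu and small RNA elements, and 0.203%, 0.154% and 0.198% without the top row of each subfamily. With at least 50 reads the medians that used siLuc DAC were -0.36 and 0.31, and with at least 1 read -0.63 and 0.58. Their differences from all repeat rows depended on the read limit. They were -0.28 and 0.24 with at least 50 reads, -0.55 and 0.45 with at least 20, and -0.73 and 0.57 with at least 1. With at least 50 reads the shares past 2-fold higher and lower were 3.22% and 28.4%, 2.14% and 3.01%, and 28.9% and 3.16% (all repeat rows 14.3% and 14.0%, 8.66% and 4.24%, and 11.2% and 8.71%). With 1 read added, or with rows without reads set at 3 reads (chosen after seeing the data), all 21 medians each stayed within their intervals, and the 3 summed ratios did so without the row with most reads. At a q-value under 0.01, 1 gene of the silencing list was called for DAC in siLuc. Centring on GC content was also chosen after seeing the data. No paired analysis was possible because the J2 groups have 1 library each and the total RNA table used here gives 1 value per group, so the planned count tests, the block and the fits without single libraries were not run. Rows with 20 to 99 reads rest on few reads, and each comparison rests on 1 J2 library per group.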
